A study of Mus musculus with 8 samples.

Results

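NF-kB is a family of transcription factors that cells keep inactive in the cytoplasm and release on inflammatory signals, and several of its own subunits and inhibitors are among its target genes. The genes described here are 10 such loop genes: the subunit genes Nfkb1, Nfkb2 and Relb, the IkB family genes Nfkbia, Bcl3 and Nfkbiz, the ubiquitin pathway genes Tnfaip3, Tnip1 and Birc3, and the RNase gene Zc3h12a. They were taken by gene symbol from a table of 12160 genes, and all 10 were present and passed the filter on low counts in each of the 3 comparisons.

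In resting cells, IkB proteins hold NF-kB dimers in the cytoplasm. The canonical branch frees dimers of RelA and p50 after degradation of IkBα, whereas the noncanonical branch works through processing of the Nfkb2 product p100 to p52, which pairs with RelB. In fibroblasts of the pancreas, NF-kB is known for driving cytokine and chemokine genes, and products of its own target genes such as IkBα, A20 and Regnase-1 limit the response.

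RNA of 1 immortalized line of mouse pancreatic stellate cells (PSCs), which are fibroblast-like residents of that organ, was measured in 8 libraries. Cells were kept in Matrigel for 4 days with growth medium and for 4 more days with 1 of 3 media. The shBrca2-CM group (3 libraries) received medium conditioned by KPC organoids, mouse pancreatic cancer cells grown in 3D, in which Brca2 was silenced by shRNA, and the shControl-CM group (3 libraries) received medium of KPC organoids with a non-targeting shRNA. The control group (2 libraries) is recorded as DMEM in sample titles but as medium that the PSCs had conditioned themselves in the treatment field, and is called control medium here. The libraries came from separate culture domes of that single line, with no animal or second line behind them, so the p-values measure the spread between domes. What the organoids secreted was not measured in these libraries.

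Total counts ranged from 655996 to 1095534 with shBrca2-CM, from 1093609 to 1624392 with shControl-CM, and reached 5476988 and 4623846 with control medium. All 11 fibroblast markers examined had counts in every library, with a summed expression of 5057 to 5716 CPM (the count of a gene scaled to a common library size), 5670 to 6661 CPM, and 9010 to 10838 CPM in the same order. Single fibroblast markers moved in both directions against control medium, with 3 of 11 called higher and 6 called lower for each conditioned medium. Examples are Dcn (log2 fold changes of 4.50 with shControl-CM and 3.56 with shBrca2-CM) and Vim (-3.38 and -2.68). Between the conditioned media, Pdgfra was called higher with shBrca2-CM (0.85 ± 0.20, edgeR adjusted p = 0.0519). Dcn (-0.93 ± 0.14, adjusted p = 0.00314) and Lum (-1.59 ± 0.42, adjusted p = 0.0849) were called lower. Of the stellate cell markers, Des and Acta2 together had 9 to 12 counts in each conditioned-medium library, against 188 and 130 in the deeper control libraries. Acta2 was called lower with shControl-CM and shBrca2-CM than with control medium (-4.12 and -3.49). Des went the other way, with means of 6.99, 10.4 and 4.04 CPM with shControl-CM, shBrca2-CM and control medium. It was called higher with shBrca2-CM than with control medium (1.32 ± 0.43, edgeR adjusted p = 0.0104), but not with shControl-CM. Gfap and Lrat were not analysed here. Epithelial markers (3 of 8 analysed) summed to 59.3 to 94.1 CPM, 57.7 to 70.6 CPM, and 37.0 and 41.7 CPM. Of these 3, Muc1 and Krt18 were called higher with shControl-CM and shBrca2-CM than with control medium (log2 fold changes 1.97 and 2.08 for Muc1, 2.43 and 2.66 for Krt18). Krt19 was called lower (-3.18 and -1.03), and higher with shBrca2-CM than with shControl-CM (2.12 ± 0.52, edgeR adjusted p = 0.0632). Leukocyte markers (3 of 8 analysed) summed to 13.0 to 26.6 CPM, 23.7 to 36.0 CPM, and 9.46 and 11.5 CPM, and of the endothelial markers Kdr and Tek summed to at most 3.48 CPM. Their part in the results was not tested. In such bulk samples, fewer cells of a type and less RNA per cell cannot be told apart.

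Promoter windows from RefSeq (build GRCm38.p6, 250 bases before to 50 bases after an annotated start site) were at hand for 7 of the 10 genes, but not for Nfkb1, Nfkbiz and Relb. Windows are shown for a gene that rose modestly with both conditioned media (Nfkbia, chr12:55492598-55492897, minus strand), for the gene with the largest rise (Bcl3, chr7:19822706-19823005, minus strand), for a subunit gene (Nfkb2, chr19:46304487-46304786, plus strand), for a gene that was lower in every conditioned-medium library (Tnfaip3, chr10:19015361-19015660, minus strand) and for the gene with the largest difference between the conditioned media among the 10 (Zc3h12a, chr4:125127832-125128131, minus strand). They read 5′ to 3′ on the strand of the gene, and capitals mark matches, on either strand, to GGGNNNTTCC or to the 10-base kappaB consensus, a pair of overlapping motifs.
Nfkbia: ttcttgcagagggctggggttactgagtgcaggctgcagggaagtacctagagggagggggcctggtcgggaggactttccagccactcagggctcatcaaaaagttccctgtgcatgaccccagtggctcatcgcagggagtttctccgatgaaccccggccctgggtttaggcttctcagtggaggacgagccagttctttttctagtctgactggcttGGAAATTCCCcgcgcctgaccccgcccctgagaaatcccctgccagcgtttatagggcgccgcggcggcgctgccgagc
Bcl3: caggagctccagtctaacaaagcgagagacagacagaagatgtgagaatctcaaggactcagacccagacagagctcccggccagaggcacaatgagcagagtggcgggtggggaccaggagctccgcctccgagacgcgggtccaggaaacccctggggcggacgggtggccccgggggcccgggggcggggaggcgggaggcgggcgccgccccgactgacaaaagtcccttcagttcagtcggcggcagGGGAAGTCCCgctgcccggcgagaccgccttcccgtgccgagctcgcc
Nfkb2: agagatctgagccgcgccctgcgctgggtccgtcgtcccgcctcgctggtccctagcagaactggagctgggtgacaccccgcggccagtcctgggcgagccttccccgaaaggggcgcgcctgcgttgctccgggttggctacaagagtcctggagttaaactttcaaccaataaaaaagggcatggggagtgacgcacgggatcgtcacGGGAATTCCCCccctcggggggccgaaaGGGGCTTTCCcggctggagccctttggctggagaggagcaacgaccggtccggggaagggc
Tnfaip3: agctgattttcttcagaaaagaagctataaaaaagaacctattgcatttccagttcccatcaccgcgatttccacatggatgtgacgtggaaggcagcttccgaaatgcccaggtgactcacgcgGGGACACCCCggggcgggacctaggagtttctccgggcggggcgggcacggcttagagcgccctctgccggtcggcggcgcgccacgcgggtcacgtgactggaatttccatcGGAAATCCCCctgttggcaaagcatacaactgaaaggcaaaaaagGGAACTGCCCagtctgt
Zc3h12a: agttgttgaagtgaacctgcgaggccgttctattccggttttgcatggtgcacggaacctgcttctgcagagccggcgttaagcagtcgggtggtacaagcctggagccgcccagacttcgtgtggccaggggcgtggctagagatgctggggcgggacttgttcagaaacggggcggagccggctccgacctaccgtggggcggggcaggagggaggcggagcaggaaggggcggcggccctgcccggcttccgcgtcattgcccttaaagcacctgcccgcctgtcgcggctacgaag
Matches to GGGNNNTTCC were found in 4 of the 7 genes with a window, and in 6.31% of all 27025 mouse genes with one. The kappaB consensus matched in 5 of the 7 (Nfkbia, Tnfaip3, Nfkb2, Bcl3 and Tnip1) and in 5.14% of all genes. Some genes have several windows, and counted by window each motif matched in 7 of 10 windows of these genes and in 5.56% and 4.51% of all 32851. In Nfkbia the match spanned positions -29 to -20 from the start site, and in Bcl3 positions 3 to 12. Neither motif matched in the windows of Zc3h12a and Birc3, which says only that these letters are not in these windows.

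The question was which of these genes responded to tumor-conditioned medium, and whether the response differed when Brca2 was silenced in the tumor cells. For this, edgeR's quasi-likelihood test was run on each pair of media. Calls of differential expression required a log2 fold change beyond 0.5 in either direction, a Benjamini-Hochberg adjusted p under 0.1 and normalized counts averaging over 5. With shControl-CM, 7 of the 10 genes rose against control medium (Nfkb2, Relb, Nfkbia, Bcl3, Nfkbiz, Tnip1 and Zc3h12a), where 37.1% of all 12086 genes tested were called and 18.2% were called higher. With shBrca2-CM, 4 of the 10 rose (Relb, Nfkbia, Bcl3 and Nfkbiz), against 37.8% called and 18.6% called higher of all genes. Between the conditioned media, Zc3h12a and Relb were lower with shBrca2-CM (2 of 10), whereas 3.13% of all 11035 genes tested were called and 1.55% were called lower. The 7 became 4 without either control library, while the calls over all genes went from 4488 to 1901 and 2269. The 2 became 4 without the first shControl-CM library, and 1 without any shBrca2-CM library or the second shControl-CM library. Over all genes, the 345 calls became 976 in the first case and 128 to 175 in the others. The median log2 fold change of the 10 genes was 0.81, 0.36 and -0.32 in these comparisons, and that of all genes tested was -0.10, -0.05 and 0.03. The comparisons with control medium share the 2 control libraries, so their values are given side by side and not as separate evidence.

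**Figure D1:**
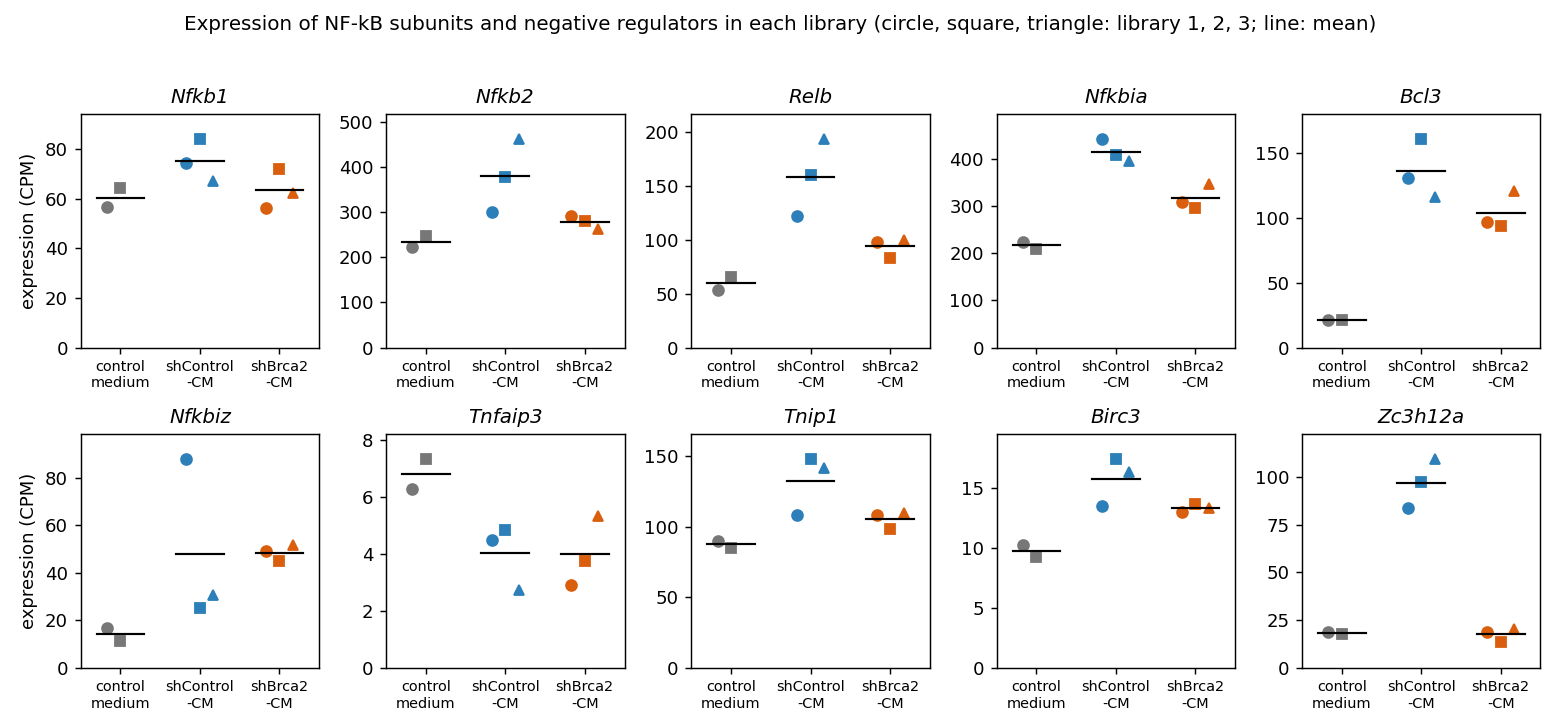
Expression of each of the 10 genes in CPM (vertical axes, linear and from 0) in the 8 libraries, by medium; points are libraries and lines are group means. Zc3h12a stands at 83.9 to 109 CPM with shControl-CM and at 13.7 to 20.4 CPM in all other libraries, and Bcl3 is higher in all 6 conditioned-medium libraries than in both control libraries.

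Gene positions below are those of RefSeq on GRCm38.p6, the build that the submitters' notes name as mm10, and all 10 genes are protein-coding. Nfkb1, Bcl3 and Tnip1 overlap annotated genes that were not analysed here. Among Nfkb1, Nfkb2 and Relb, the subunit genes of the 10, Relb had the largest log2 fold changes in all 3 comparisons. Relb (chr7:19606217-19629438) encodes the partner of p52. The shControl-CM libraries held 122, 160 and 194 CPM of Relb, the shBrca2-CM libraries 98.4, 83.4 and 100.3 CPM, and the control libraries 53.4 and 65.8 CPM. Every shControl-CM library was above every shBrca2-CM library, and these in turn were above both control libraries. Relb rose 2.65-fold with shControl-CM (log2 fold change 1.41 ± 0.22 SE, edgeR adjusted p = 0.0012) and 1.59-fold with shBrca2-CM (0.67 ± 0.17, adjusted p = 0.00117). The difference between the conditioned media was -0.72 ± 0.18 on the log2 scale (adjusted p = 0.073), the weaker of the pair of calls. It passed the thresholds in 10 of 16 alternative analyses. It missed them with total counts, at the stricter thresholds, and when any 1 of the 3 shBrca2-CM libraries or the second shControl-CM library was left out, although the differences without these libraries were -0.77 to -0.64. Over all 16 the log2 difference ran from -0.91 to -0.56 and the adjusted p from 0.00369 to 0.348.

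Nfkb2 (chr19:46300994-46312400), whose product p100 is both a precursor of p52 and an inhibitor, was measured at 300.5, 378 and 462 CPM with shControl-CM, at 292, 280.0 and 262 CPM with shBrca2-CM, and at 222 and 248 CPM with control medium. The groups did not overlap, but the lowest shControl-CM library lay close to the highest shBrca2-CM library. Nfkb2 rose with shControl-CM (0.69 ± 0.19, edgeR adjusted p = 0.0212), a call that was lost without either control library (log2 fold change 0.52 to 0.84 over all 15 alternatives). With shBrca2-CM its log2 difference from control medium was 0.24 (95% interval -0.04 to 0.53, adjusted p = 0.176), and between the conditioned media it was -0.43 (-0.77 to -0.08, adjusted p = 0.24). Without the first shControl-CM library, that last difference became -0.60 and passed the thresholds (adjusted p = 0.0187, over a range of 0.0187 to 0.528 in all alternatives). The Nfkb2 locus overlaps Psd and 4833438C02Rik, which are also in the table, and whether the counting used strand is not given in the sources used here.

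Nfkb1 (chr3:135584655-135691969), which encodes p105 and p50, moved least among Nfkb1, Nfkb2 and Relb. It was measured at 74.3, 84.1 and 67.2 CPM with shControl-CM, at 56.4, 72.2 and 62.1 CPM with shBrca2-CM, and 56.7 and 64.3 CPM with control medium, so that shBrca2-CM and control libraries overlapped fully. None of its 3 comparisons was called, with log2 differences of 0.30 (95% interval -0.10 to 0.71), 0.08 (-0.28 to 0.44) and -0.21 (-0.59 to 0.17) for shControl-CM and shBrca2-CM against control medium and between the conditioned media (edgeR adjusted p = 0.23, 0.764 and 0.685). These intervals leave room for changes of either sign.

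Among the IkB family genes, Bcl3 (chr7:19808462-19822824), a nuclear IkB protein that binds p50 and p52 homodimers, rose most. It went from 20.9 and 21.3 CPM with control medium to 131, 160 and 116 CPM with shControl-CM and 96.9, 93.3 and 121 CPM with shBrca2-CM. The conditioned media overlapped, and all 6 of their libraries were well above both control libraries. The rise was 6.38-fold with shControl-CM (2.67 ± 0.21, edgeR adjusted p = 2.03e-05) and 4.97-fold with shBrca2-CM (2.31 ± 0.19, adjusted p = 5.58e-16), and both calls held in all 15 alternatives tried for each. Its log2 difference between these media was -0.35 (95% interval -0.72 to 0.03, adjusted p = 0.423).

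Nfkbia (chr12:55489409-55492647) encodes IkBα, the inhibitor that is degraded and resynthesized in each round of canonical signalling. It was measured at 442, 409 and 395 CPM with shControl-CM, at 308, 296 and 346 CPM with shBrca2-CM, and 225 and 209 CPM with control medium, 3 ranges without overlap. Nfkbia rose 1.91-fold with shControl-CM (0.93 ± 0.15, edgeR adjusted p = 0.00159) and 1.47-fold with shBrca2-CM (0.55 ± 0.14, adjusted p = 0.00135). The second of these lies near the fold threshold and was lost without the third shBrca2-CM library, at a log2 fold change of 0.48. Although the libraries of the conditioned media did not overlap, their difference was -0.36 (95% interval -0.63 to -0.09) and was not called (adjusted p = 0.202).

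Nfkbiz (chr16:55811375-55838954) encodes IkBζ, a nuclear cofactor needed for a subset of NF-kB target genes, including Il6 and Lcn2. It was measured at 87.8, 25.1 and 30.6 CPM with shControl-CM, at 49.2, 44.8 and 51.5 CPM with shBrca2-CM and at 16.7 and 11.4 CPM with control medium. The first shControl-CM library stood above all others and the other two lay below the whole shBrca2-CM group. The group means of the conditioned media were nearly equal (47.8 ± 34.7 and 48.5 ± 3.40 CPM, SD, n = 3 each), with a log2 difference of 0.01 (95% interval -0.84 to 0.86, edgeR adjusted p = 0.996). Without the first shControl-CM library, Nfkbiz was called higher with shBrca2-CM, by 0.79 (adjusted p = 0.0618, over a range of 0.0618 to 1.0 in the 16 alternatives). Against control medium it rose 3.44-fold with shControl-CM (1.78 ± 0.48, adjusted p = 0.0186; 0.99 without that library, adjusted p = 0.015) and 3.43-fold with shBrca2-CM (1.78 ± 0.23, adjusted p = 4.2e-09). The call with shControl-CM was lost without either control library, at log2 fold changes of 2.10 and 1.53. Over its 15 alternatives the log2 fold change ran from 0.99 to 2.10 and the adjusted p from 1.75e-11 to 0.189.

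The first shControl-CM library was also the highest of its group for 10 of 16 secreted NF-kB targets, compared with 36.1% of all genes, but for only Nfkbia and Nfkbiz of the 10 genes described here. Il6 and Lcn2, picked for this comparison after their values were seen, differed in this respect. For Il6 these libraries gave 41.0, 24.2 and 6.79 CPM. Lcn2 was highest in the second shControl-CM library. Within shControl-CM, the second library was highest for 5 of the 10 genes (27.0% of all genes) and within shBrca2-CM the third for 7 of the 10 (33.2% of all genes).

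**Figure D2:**
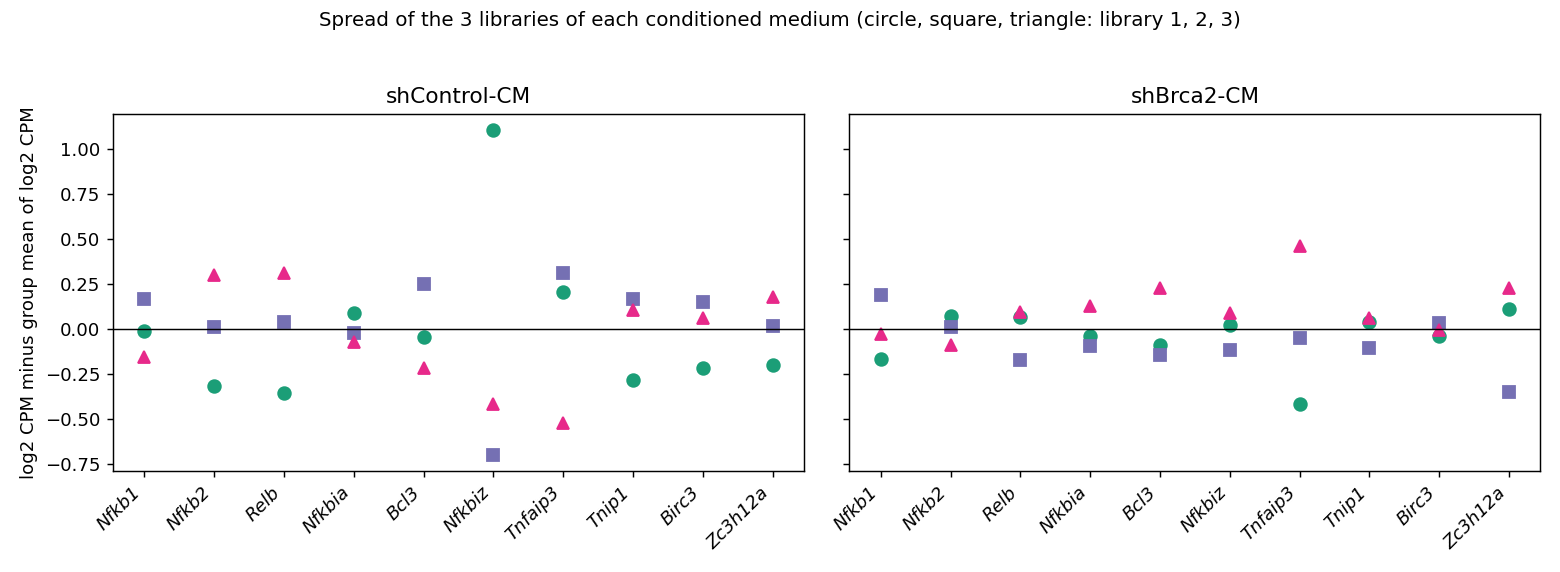
Deviation of each library from its group mean (vertical axis, log2 CPM) for the 10 genes, with shControl-CM on the left and shBrca2-CM on the right; each point is 1 library. Nfkbiz has the widest spread with shControl-CM, where library 1 stands apart, and Tnfaip3 and Zc3h12a have the widest spread with shBrca2-CM.

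Of the ubiquitin pathway genes, only Tnip1 was called, and only with shControl-CM. Tnip1 (chr11:54910787-54962956), which encodes the A20-binding protein ABIN-1, was measured at 108, 148 and 142 CPM with shControl-CM, at 109, 98.3 and 110 CPM with shBrca2-CM, and 90.0 and 84.9 CPM with control medium. All conditioned-medium libraries lay above both control libraries, and the first shControl-CM library lay within the shBrca2-CM range. Tnip1 rose with shControl-CM (0.59 ± 0.18, edgeR adjusted p = 0.033), a call lost in 5 of 15 alternatives, among them total counts in place of the TMM normalization and the omission of the second shControl-CM library or either control library (log2 fold change 0.47 to 0.75 and adjusted p up to 0.189 over all 15). With shBrca2-CM the log2 difference from control medium was 0.28 (95% interval -0.04 to 0.60, adjusted p = 0.169), and between the conditioned media it was -0.30 (-0.65 to 0.06, adjusted p = 0.477).

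Birc3 (chr9:7847468-7873205) encodes cIAP2, a ubiquitin ligase of TNF receptor complexes. It gave 9 to 24 counts in each conditioned-medium library and 59 and 43 counts in the control libraries, which placed it at 13.5, 17.4 and 16.3 CPM with shControl-CM, at 13.0, 13.7 and 13.3 CPM with shBrca2-CM and 10.3 and 9.24 CPM with control medium. All 6 conditioned-medium libraries were above both control libraries, yet neither log2 fold change was called (0.67 ± 0.29 and 0.45 ± 0.33, edgeR adjusted p = 0.107 and 0.289). The call with shControl-CM was gained in 3 of 15 alternatives, 1 of them the omission of the first shControl-CM library (0.78). In 1 random thinning to equal depth the log2 fold change with shControl-CM was 0.16 (adjusted p = 0.84, over a range of 0.0704 to 0.84 in all alternatives), with 8, 8 and 12 counts left against 11 and 7. The difference between the conditioned media was -0.20 (95% interval -0.87 to 0.47, adjusted p = 0.844).

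Tnfaip3 (chr10:19000910-19015410), which encodes the ubiquitin-editing enzyme A20, was the exception in direction. Its counts were 7, 5 and 4 with shControl-CM, 2, 3 and 6 with shBrca2-CM and 36 and 34 with control medium, which correspond to 4.48, 4.83 and 2.72 CPM, 2.89, 3.73 and 5.33 CPM, and 6.26 and 7.31 CPM. Every conditioned-medium library was below both control libraries, as were 33.1% of all genes with shControl-CM and 31.3% with shBrca2-CM. The first and second shBrca2-CM libraries were at or under a floor of 3 counts, and neither fold change was called (-0.78 ± 0.42 and -0.68 ± 0.48, edgeR adjusted p = 0.18 and 0.268). After 1 random thinning to equal depth, which left 8 counts in each control library and 1 to 3 in the others, the log2 fold changes were -1.83 and -1.72 (adjusted p = 0.0602 and 0.0327). These passed the thresholds of p and fold, but the mean normalized counts of 4.29 and 4.59 did not. Over all alternatives the values ran from -1.83 to -0.53 (adjusted p = 0.0602 to 0.483) and from -1.72 to -0.54 (0.0327 to 0.506). Between the conditioned media the difference was 0.09 with a 95% interval of -1.12 to 1.29, and a difference between these media within that interval was not detectable at this depth.

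Zc3h12a (chr4:125118414-125127881) encodes Regnase-1, an RNase that degrades mRNAs of inflammatory genes such as Il6 and thereby limits NF-kB output after transcription. It was measured at 83.9, 97.6 and 109 CPM with shControl-CM (131, 101 and 161 counts), at 18.8, 13.7 and 20.4 CPM with shBrca2-CM (13, 11 and 23 counts) and at 18.9 and 17.6 CPM with control medium (109 and 82 counts). The shControl-CM libraries were all at least 83.9 CPM, while shBrca2-CM and control libraries covered the same low range. Zc3h12a rose 5.25-fold with shControl-CM (2.39 ± 0.21, edgeR adjusted p = 3.69e-05) and was 5.31-fold lower with shBrca2-CM than with shControl-CM (-2.41 ± 0.22, adjusted p = 0.000119). With shBrca2-CM its log2 difference from control medium was -0.03 (95% interval -0.59 to 0.52, adjusted p = 0.938). The difference between the conditioned media was called in all 16 alternatives, at log2 fold changes of -2.54 to -2.26 and adjusted p-values up to 0.00322. In 1 random thinning of every library to 655996 counts, it was -2.26 (adjusted p = 7.51e-05). The same thinning lowered the rise with shControl-CM to 3.38-fold (1.76, adjusted p = 0.000625, over a range of 8.19e-24 to 0.0052 in its 15 alternatives, all called). It moved the difference of shBrca2-CM from control medium to -0.50 (adjusted p = 0.289, over a range of 0.289 to 0.968), with 13, 10 and 15 counts left against 18 and 18.

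Markers of leukocytes, which also express Zc3h12a, moved in part the same way. Csf1r, a macrophage receptor gene, was measured at 7.05, 7.73 and 13.6 CPM with shControl-CM, at 0, 1.24 and 3.55 CPM with shBrca2-CM and 2.43 and 1.93 CPM with control medium. The first and second shBrca2-CM libraries lay under the floor of 3 counts for Csf1r. With shControl-CM, Csf1r rose against control medium (2.09 ± 0.45, edgeR adjusted p = 0.00674), as did the macrophage marker Cd68 (2.0 ± 0.34, adjusted p = 0.00187). Lyz2, the other leukocyte marker analysed, was not called there, at 2.56, 4.83 and 1.36 CPM against 4.34 and 3.65 CPM with control medium. With shBrca2-CM, where Zc3h12a was at the control level, Cd68 also rose (1.69 ± 0.38, adjusted p = 0.000272). The difference of Csf1r between the conditioned media was -2.26 (adjusted p = 0.134). Cd68 differed by -0.31 and Lyz2 by 0.30 in this comparison, neither called, and Ptprc, the pan-leukocyte gene, was not analysed here. The part of such cells in the Zc3h12a result was not tested.

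**Figure D3:**
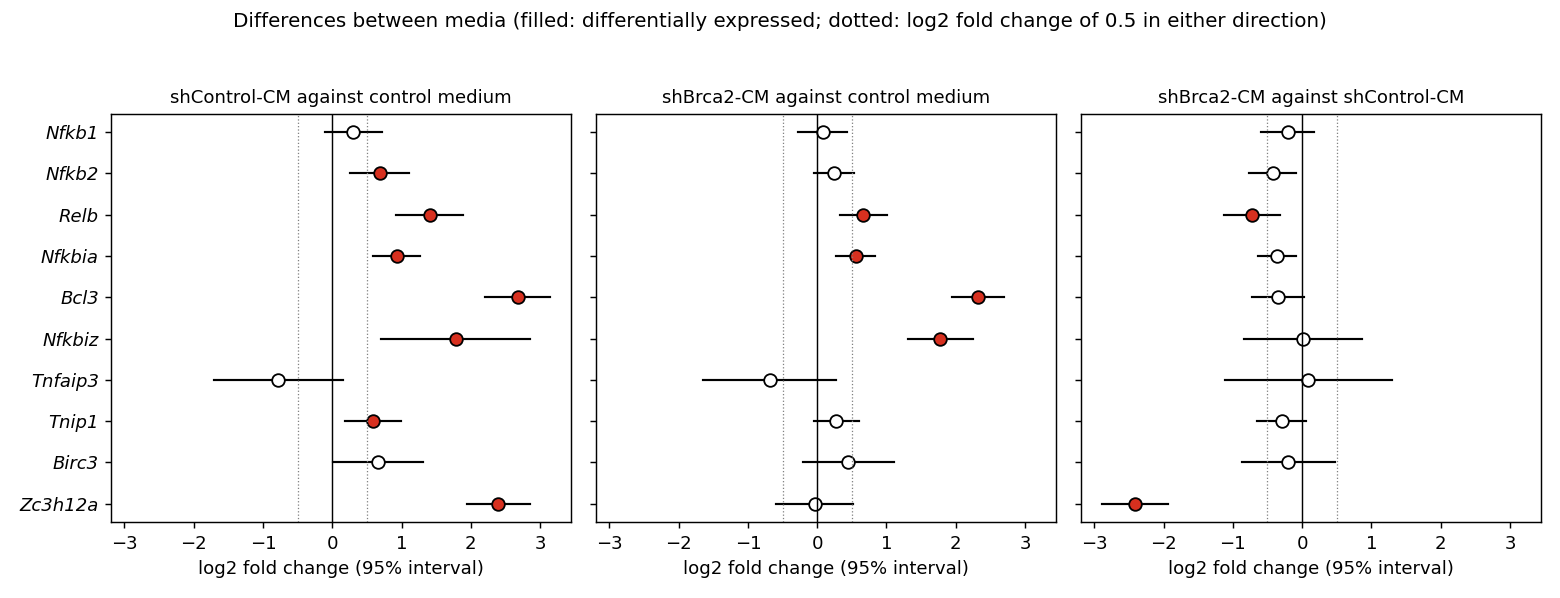
Log2 fold changes of the 10 genes in the 3 comparisons with 95% intervals from the edgeR fit; filled points passed the thresholds and dotted lines mark a log2 fold change of 0.5 in either direction. Zc3h12a lies at 2.39, -0.03 and -2.41 from left to right, whereas Bcl3 lies at 2.67 and 2.31 against control medium and at -0.35 between the conditioned media.

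By groups that do not overlap, 9 of the 10 genes were higher in all shControl-CM libraries than in both control libraries (26.8% of all genes), and 7 of 10 were higher in all shBrca2-CM libraries (26.1%). Nfkbia, Zc3h12a, Nfkb2 and Relb, 4 of 10, were lower in all shBrca2-CM than in all shControl-CM libraries (10.6%). Scaled to total counts, 250 genes were called higher and 120 lower between the conditioned media in place of 174 and 171, and the median of all genes went from 0.03 to 0.14. The same scaling moved the median of all genes with shControl-CM against control medium from -0.10 to -0.21. In that comparison, 1798 genes were called higher and 2671 lower in place of 2200 and 2288. Zc3h12a kept its direction and calls relative to these shifts, and Relb was no longer called between the conditioned media (-0.61, adjusted p = 0.109).

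Other genes of the pathway were then counted by role. Of 10 other subunit, IkB and kinase genes tested against control medium, 3 rose with shControl-CM (Rela, Ikbke and Nfkbib) and 4 with shBrca2-CM (Rela, Ikbke, Ikbkb and Map3k14). Of all genes, 37.1% and 37.8% were called in these comparisons and 18.2% and 18.6% were called higher. Rela, the main activating subunit, rose by 1.47 ± 0.17 and 1.27 ± 0.15 on the log2 scale (edgeR adjusted p = 0.000222 and 2.25e-10), and Ikbke, an IkB kinase-related gene, by 2.03 ± 0.28 and 1.84 ± 0.26 (adjusted p = 0.000567 and 4.87e-08). Between the conditioned media, edgeR and both DESeq2 tests called 0 of the 9 genes tested in this list, beside 3.13% of all genes with edgeR. Of the 9, 1 had an unadjusted edgeR p under 0.05, as had 1477 of all 11035 genes tested. The median of the list was 0.02, beside 0.03 for all genes. Leaving out the first shControl-CM library raised the count of 3 to 5, while calls over all genes went from 4488 to 5157. Leaving out the third shBrca2-CM library lowered the count of 4 to 2, while calls over all genes went from 4555 to 3903.

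Of 17 negative regulators outside the 10 genes, 6 rose and 3 fell with shControl-CM and 6 rose and 3 fell with shBrca2-CM, beside 37.1% and 37.8% of all genes called, which rose and fell in about equal numbers (2200 and 2288, then 2247 and 2308). The strongest rises were those of Rc3h2, a roquin that binds and destabilizes mRNAs as Regnase-1 does (3.66 ± 0.31 and 3.26 ± 0.32, edgeR adjusted p = 3.69e-05 and 8.42e-13), and of Otud7b, the deubiquitinase Cezanne (1.97 ± 0.24 and 2.35 ± 0.22, adjusted p = 0.00026 and 1.3e-13). Cyld, a deubiquitinase, fell in both comparisons (-1.38 ± 0.43 and -1.38 ± 0.40, adjusted p = 0.0324 and 0.00381). Pdlim2, which encodes a protein that promotes RelA degradation, was the 1 gene of the list that differed between the conditioned media, at 251 CPM with shBrca2-CM and 166 CPM with shControl-CM (0.63 ± 0.14, adjusted p = 0.0485), and it stood at 294 CPM with control medium. The call of Pdlim2 was lost without the second or the third shBrca2-CM library or the second shControl-CM library. Calls over all genes then went from 345 to 128, 160 and 169. The 9 calls of the list with shControl-CM became 4 without the second shControl-CM library, while calls over all genes went from 4488 to 3453. Fewer genes were also called without either control library, in the list and over all genes.

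Among NF-kB targets, secreted proteins and other products were counted separately, beside 37.1%, 37.8% and 3.13% of all genes called in the 3 comparisons and 1.55% called lower between the conditioned media. Of 16 secreted targets tested, 14 rose and 2 fell with shControl-CM (median log2 fold change 3.37). With shBrca2-CM, 13 rose and 1 fell (2.22), and 8 were lower than with shControl-CM (median -1.02). These 8 became 5 without the first or the second shBrca2-CM library, while calls over all genes went from 345 to 175 and 128. Lcn2, an iron-binding acute phase protein, had mean levels of 6.89 CPM with control medium, 609 CPM with shBrca2-CM and 3522 CPM with shControl-CM, a difference of -2.50 ± 0.15 between the conditioned media (edgeR adjusted p = 4.65e-06). Saa3, serum amyloid A3, differed by -1.80 ± 0.14 (adjusted p = 2.26e-05). Of 13 intracellular and surface targets, 7 rose and 2 fell with shControl-CM and 6 rose and 3 fell with shBrca2-CM. Between the conditioned media, 4 were lower with shBrca2-CM (median -0.12). These 4 became 2 without the second or the third shBrca2-CM library, where calls over all genes went to 128 and 160. Ier3, an early response gene, differed by -0.98 ± 0.13 (edgeR adjusted p = 0.00144) and Tnfrsf9, which encodes the receptor 4-1BB, by -1.13 ± 0.19 (adjusted p = 0.00867).

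**Figure D4:**
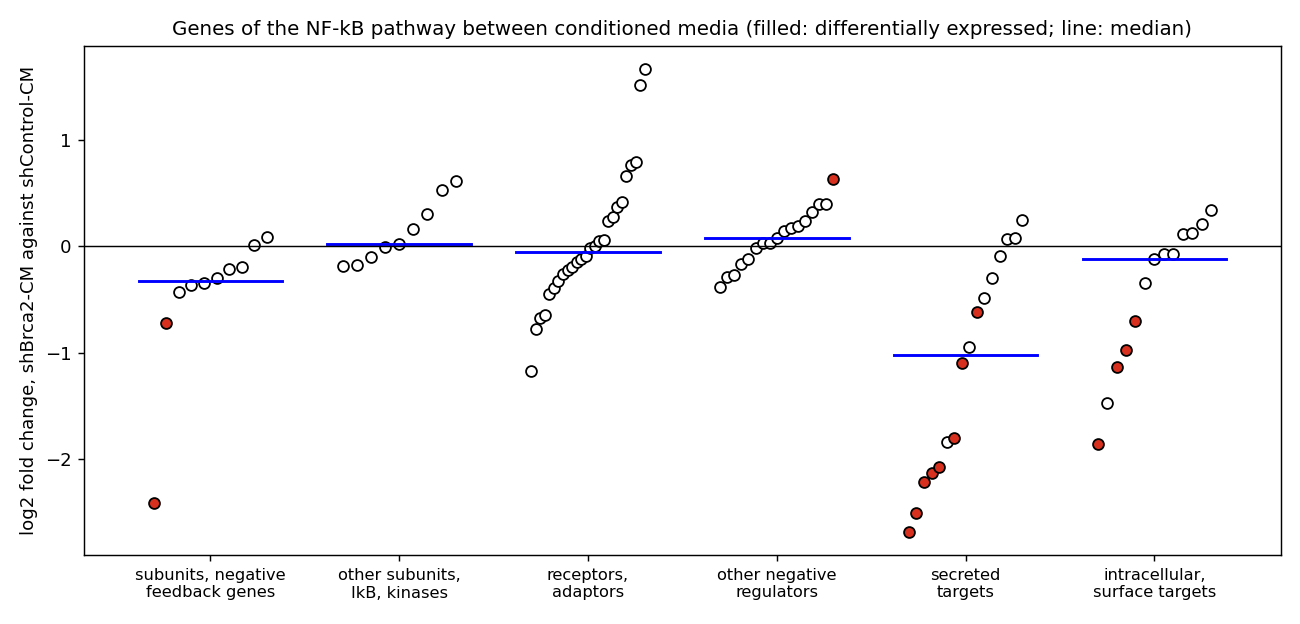
Difference between the conditioned media (vertical axis, log2 fold change, negative where lower with shBrca2-CM) for each gene of 6 lists; points are genes in ascending order, filled where differentially expressed, and blue lines are list medians. Zc3h12a at -2.41 lies within the range of the secreted targets, whose median is -1.02, whereas the other 9 loop genes lie between -0.72 and 0.09.

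Across the 8 libraries, the genes most similar to the mean standardized profile of the 10 genes were Atf4 (Pearson r = 0.993), Rarres2 (0.988), Chil1 (0.988), Prss46 (0.986) and Icmt (0.985). Atf4, a transcription factor of the integrated stress response, had mean levels of 851 CPM with control medium, 1033 CPM with shBrca2-CM and 1220 CPM with shControl-CM. Chil1 and Prss46 had few counts. Among the 10 genes, Nfkb2 and Relb were most alike (r = 0.95), Nfkbiz followed the mean profile least among the genes with a positive value (0.52), and Tnfaip3 ran against it (-0.521). All of these values rest on the same 8 libraries, which differ in depth, and on 3 media, and they describe these libraries only.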

How the data were processed

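MARS-seq libraries of mRNA 3′ ends were counted by the authors, who deposited raw counts per gene without normalization. Their processing notes name bcl2fastq, cutadapt, STAR 2.4.2a, HTSeq, DESeq2 and mm10. By which rule the 12160 genes were kept and whether molecular identifiers or strand were used is not given in the sources used here. The table also held 1 per-sample column that no sample record matched, which was left out.

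Counts were tested in R 4.3.3 with edgeR 4.0.16 (quasi-likelihood test after TMM normalization, with a minimum of 10 counts summed over the fitted libraries, Benjamini-Hochberg adjustment over all genes tested), each pair of groups alone, and the test was tried on simulated data. SE is the log2 fold change divided by the square root of F. CPM used TMM factors over all 8 libraries. Limits of counting are given as a floor of 3 counts, which is 4.34 CPM for the library of lowest depth and 0.521 CPM for that of highest depth, and cover counting error only. Alternatives were DESeq2 1.42.0 (likelihood ratio and Wald tests), its size factors or total counts, a replicate block, a joint fit of the 3 groups, thinning, stricter thresholds, other count filters and each library left out in turn. The genes and lists were chosen with earlier results of these data known. Named from each list were at most the 2 called genes with the smallest p per direction and comparison, the 5 genes most like the mean profile of the 10, and markers on which a check turned. Il6 and genes given only as members of a short count were named after their values were seen.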

Additional observations from a re-analysis of the deposited data

How the results depend on the processing

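Of 458 recalculated tests of single genes, 420 kept direction and call, 21 lost the call, 5 gained it and 12 changed sign. Counts of called genes were 2, 7 and 4 for shBrca2-CM against shControl-CM, shControl-CM against control medium and shBrca2-CM against control medium. They became 1, 6 and 4 with total counts and 1, 4 and 2 at an adjusted p of 0.05 with a log2 fold change of 1. With 1 library left out they ranged from 1 to 4, 4 to 8 and 3 to 4, while calls over all genes ranged from 128 to 976, 1901 to 5157 and 3903 to 4510. Leaving an arm with 1 control library assumes that it varies like the others. The replicate numbers carry no stated meaning, and between the conditioned media same-numbered libraries correlated at -0.036, 0.005 and 0.131 in their deviations from the group mean. With the replicate block the counts were 2, 7 and 3, and Nfkbia with shBrca2-CM was no longer called (0.48). All sign changes concerned differences that were not called. Between the conditioned media, Nfkbiz went from 0.01 to -0.0070 with DESeq2 size factors, -0.0068 with all 3 groups in one fit, and -0.27 to 0.79 with 1 library left out. Tnfaip3 ranged from -0.21 to 0.24 there. With shBrca2-CM against control medium, Birc3 was -0.047 and Zc3h12a -0.50 after thinning, and with 1 library left out Zc3h12a ranged from -0.19 to 0.12 and Nfkb1 from -0.010 to 0.18. The cause of these changes was not tested. Tnfaip3 and Birc3 had at most 24 counts in any conditioned-medium library.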

Other observations

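Receptors and adaptors upstream of NF-kB were called about as often as genes in general. Of 27 tested against control medium, 8 rose and 2 fell with shControl-CM and 6 rose and 5 fell with shBrca2-CM, or 10 and 11 called genes, beside 37.1% and 37.8% of all genes. Traf2, an adaptor of TNF receptors, rose by 1.16 ± 0.22 on the log2 scale with shControl-CM (edgeR adjusted p = 0.00355), and Rnf31, which encodes the catalytic subunit of the linear ubiquitin ligase, rose by 1.40 ± 0.23 with shBrca2-CM (adjusted p = 1.79e-06). Irak2, a kinase of the interleukin-1 pathway, fell with shBrca2-CM (-1.62 ± 0.38, adjusted p = 0.000503). Traf5 fell with shControl-CM (-0.66 ± 0.25, adjusted p = 0.0629) and with shBrca2-CM (-0.91 ± 0.26, adjusted p = 0.00413). Fewer of these genes were called with shControl-CM without either control library, as was the case over all genes. Between the conditioned media, edgeR and both DESeq2 tests called 0 of 26, beside 3.13% of all 11035 genes with edgeR. An unadjusted edgeR p under 0.05 was found for 7 of the 26 and for 1477 of all genes. Without the first and the third shControl-CM library, 3 and 2 were called, while the 345 calls over all genes became 976 and 445.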
